A study of Mus musculus with 12 samples.

Results

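The 40 genes described here are mouse imprinted genes, set against each other by imprinted domain and followed across 3 sorted fractions of spinal cord glia. They were taken by name from a list, and all 40 were found among the 53465 genes counted. In the mouse, 19 of them are usually expressed from the paternal copy and 17 from the maternal copy, and 4 are mixed between tissues or were not assigned. Imprinted genes lie in clusters in which a stretch of DNA is methylated on 1 parental copy in the egg or the sperm. Through that mark, and with insulator proteins or long non-coding RNAs, nearby genes are left active from a single parental copy. Many of these genes act on growth, and several are known for high expression in the developing brain. The counts give the summed output of both copies, so nothing below says which copy was used.

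The RNA came from mice on a C57BL/6 background at postnatal day 7, all of which carried both the Aldh1L1-GFP and the Olig2-tdTomato reporter. Aldh1L1 marks astrocytes, and Olig2 marks the oligodendrocyte lineage and part of the ventral spinal cord. Cells from brachial and thoracic cord were freed with papain and sorted into an eGFP/tdTomato, an eGFP and a tdTomato fraction of 4 libraries each, numbered 1, 2, 3 and 5. A sort by reporter takes cells by promoter activity and not by type, and neither the gates nor the number of animals behind a library is given. The p-values therefore measure the spread between these libraries. Values of 4 libraries are listed in that order of replicates throughout.

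The libraries held 12564767 to 36505583 reads counted in genes. Library eGFP 1 stood apart, with the fewest reads in genes and 57.1% of its reads outside annotated genes, against 21.2 to 42.5% in the other 11. Summed over a list of 10 astrocyte markers, levels were 44500 to 52400 CPM (counts scaled to a common library size, with TMM factors) in the eGFP/tdTomato libraries, 33600 to 49200 CPM in the eGFP libraries and 238 to 344 CPM in the tdTomato libraries. The 10 markers of myelinating oligodendrocytes summed to 1630 to 3300, 453 to 1350 and 111000 to 164000 CPM in the same fractions, so the tdTomato fraction was led by myelin genes. Markers of ependyma summed to 21 to 31.3 CPM with both reporters, 286 to 627 CPM with eGFP alone and 2.45 to 8.89 CPM with tdTomato alone. Those of fibroblasts and mural cells summed to 360 to 572, 794 to 2120 and 9.30 to 19 CPM in that order of fractions. In sorted bulk RNA, fewer cells of a type and less RNA per cell cannot be told apart.

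Of the 40 genes, 38 passed the filter on low counts, and Igf2 and Phlda2 did not. Between the eGFP/tdTomato and the tdTomato fraction, edgeR's quasi-likelihood test called 18 of the 38 (47.4%) at an adjusted p under 0.05, against 29.2% of all 29361 genes tested and 43.5% of the genes with a mean of at least 1 CPM. Called higher with both reporters were 10 imprinted genes (16.8% of all genes), and called lower were 8 (12.4% of all genes). Between the eGFP and the tdTomato fraction 21 of the 38 were called (55.3%), against 35.2% of all genes and 50.9% of those with at least 1 CPM. Of these, 14 were higher in eGFP, where the share over all genes was 20.4%, and 7 were lower, where it was 14.9%. Between the eGFP/tdTomato and the eGFP fraction only Dlk1 and Plagl1 were called, both lower with both reporters (5.26% of the 38, against 2.49% of all genes, 3.92% of those with at least 1 CPM and 1.67% of all genes for lower calls). By edgeR no imprinted gene was called higher there (0.814% of all genes), with 1 at an unadjusted p under 0.05, Ddc, which limma-voom and DESeq2 both called. Called lower there were 2 members by limma-voom and 5 by DESeq2, which called 949 of all genes lower. With single libraries left out, 1 to 3 members were lower and 0 to 1 higher in this comparison; the libraries that decide the calls are given with Dlk1 and Ddc. Without eGFP 1, all genes called lower in eGFP/tdTomato than in tdTomato numbered 5452 in place of 3628. The members thus differed mainly between the 2 fractions with astrocyte markers and the fraction with myelin markers, in both directions. Their shares were close to those of genes of at least 1 CPM, so the shares themselves are no result about imprinted genes.

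The median log2 fold change of the 38 was −0.21 in the eGFP/tdTomato over the eGFP fraction, where that of all genes was −0.02. It was 0.30 in the eGFP/tdTomato over the tdTomato fraction, with 0.70 over all genes and 0.16 over genes of at least 1 CPM. In the eGFP over the tdTomato fraction it was 0.73, with 0.79 over all genes and 0.13 over genes of at least 1 CPM. The members' median against tdTomato was −0.01 for eGFP/tdTomato without library eGFP/tdTomato 3, where that of all genes was 0.62, and 0.10 for eGFP without eGFP 1, where that of all genes was 0.28. The 3 comparisons share their libraries in pairs, so their counts are not independent. Libraries of the 2 fractions did not overlap for 6 of the 38 members between eGFP/tdTomato and eGFP (7.94% of all genes), for 19 between eGFP/tdTomato and tdTomato (35.4%) and for 19 between eGFP and tdTomato (33.9%).

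Genes usually read from the paternal and from the maternal copy were found on both sides. Of the 18 paternal genes tested, 5 were higher and 4 lower with both reporters than with tdTomato alone. Of the 16 maternal genes, 4 were higher and 3 lower, where 16.8% of all genes were higher and 12.4% lower. In the eGFP over the tdTomato fraction the counts were 5 and 3 of 18 paternal genes and 7 and 3 of 16 maternal genes, with 20.4% of all genes higher and 14.9% lower. Both genes called between the eGFP/tdTomato and the eGFP fraction, Dlk1 and Plagl1, are paternal, but 2 genes are no result about parental copy. The call of Dlk1 was lost in 9 of 20 alternatives. DESeq2 also called the maternal H19 (−2.65, adjusted p = 0.00306) and Meg3 (−0.56, adjusted p = 0.0431) and the paternal Airn (−1.10, adjusted p = 0.00760) lower there. The median log2 fold change in that comparison was −0.27 over paternal and −0.17 over maternal genes.

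**Figure D1:**
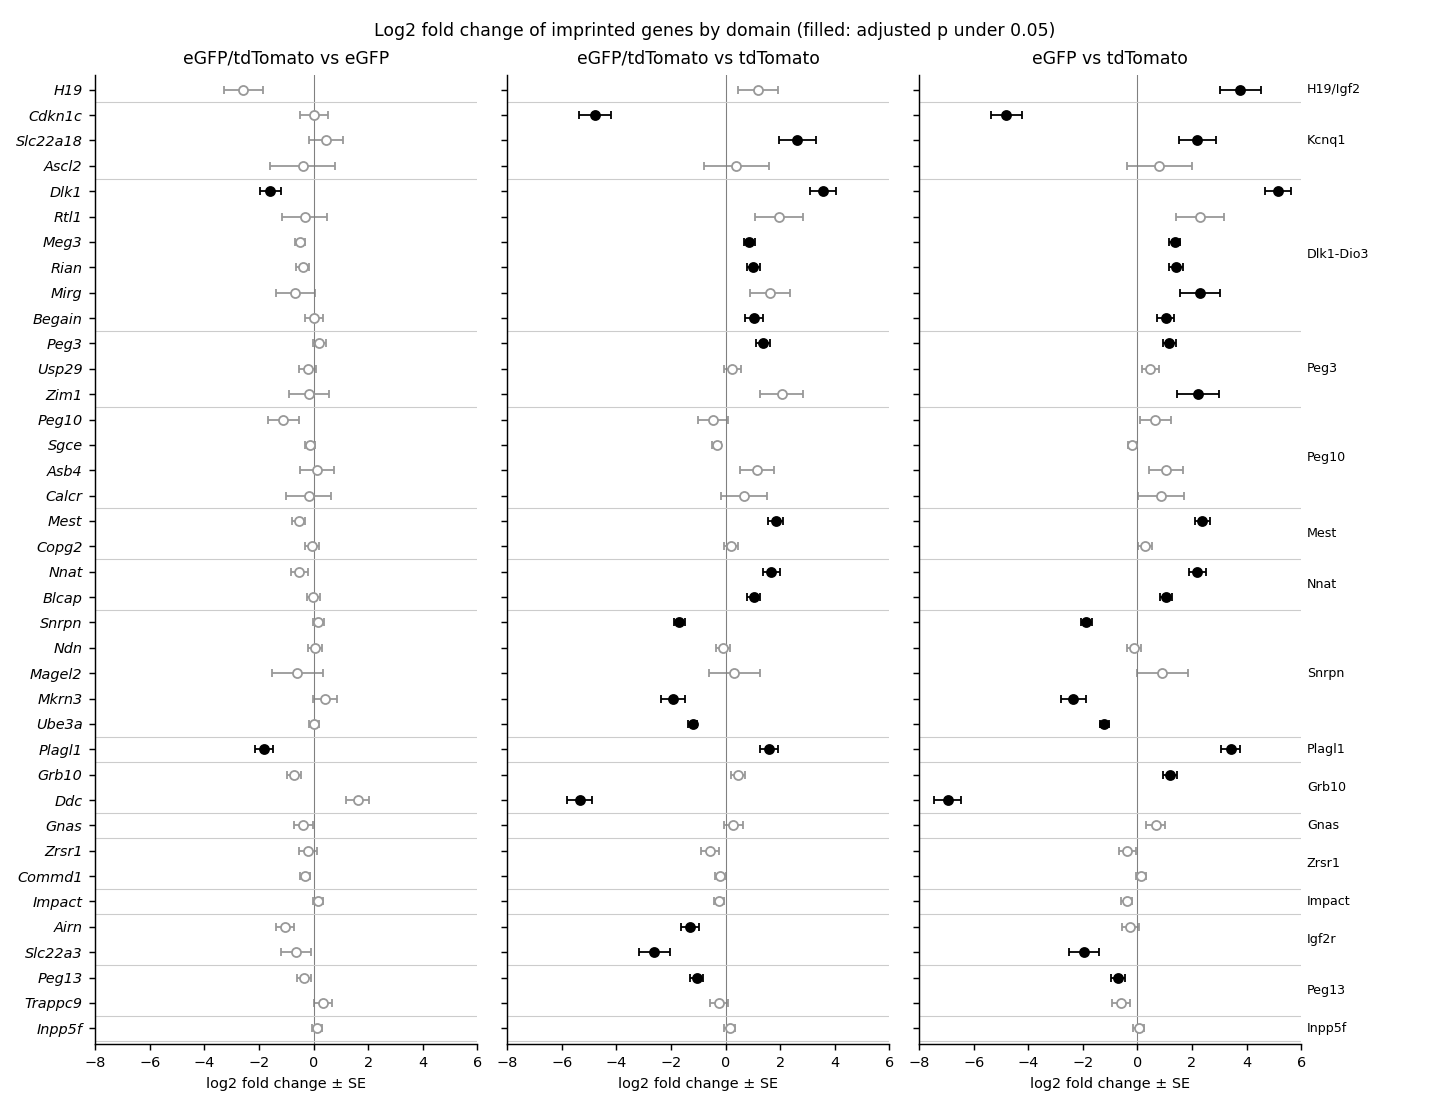
Log2 fold change ± SE of the 38 tested imprinted genes in each comparison (columns), with genes grouped by domain and the first named fraction on top of each ratio. Filled points have an edgeR adjusted p under 0.05; the left column has 2 filled points, the middle 18 and the right 21, and Ddc and Cdkn1c lie farthest to the left in the middle and right columns.

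Levels of different genes were compared as RPKM, that is CPM per kilobase of exon. Nnat led in every fraction, with a mean of 414 ± 96.1 RPKM (SD, n = 4) in the eGFP/tdTomato, 594 ± 242 RPKM in the eGFP and 131 ± 30.1 RPKM in the tdTomato fraction. In the eGFP/tdTomato fraction Ndn, Blcap, Snrpn, Impact and Peg3 came next at means of 61.4, 44.3, 27.2, 21.7 and 13.1 RPKM, and the libraries of Ndn and Blcap overlapped. The eGFP fraction had the same first 5 genes, with Mest sixth at 13 RPKM, and from Ndn to Impact each gene overlapped the next. In the tdTomato fraction the libraries of the first 7 genes overlapped their neighbours in the order down to Blcap: after Nnat came Snrpn at 88.4, Ndn at 65.5, Ddc at 63.7, Cdkn1c at 46.5, Impact at 25.6 and Blcap at 21.7 RPKM. Ddc and Cdkn1c stood at 1.57 and 1.69 RPKM in the eGFP/tdTomato fraction and at 0.521 and 1.69 RPKM in the eGFP fraction. At the low end, Igf2 and Phlda2 averaged at most 0.133 RPKM in any fraction.

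**Figure D2:**
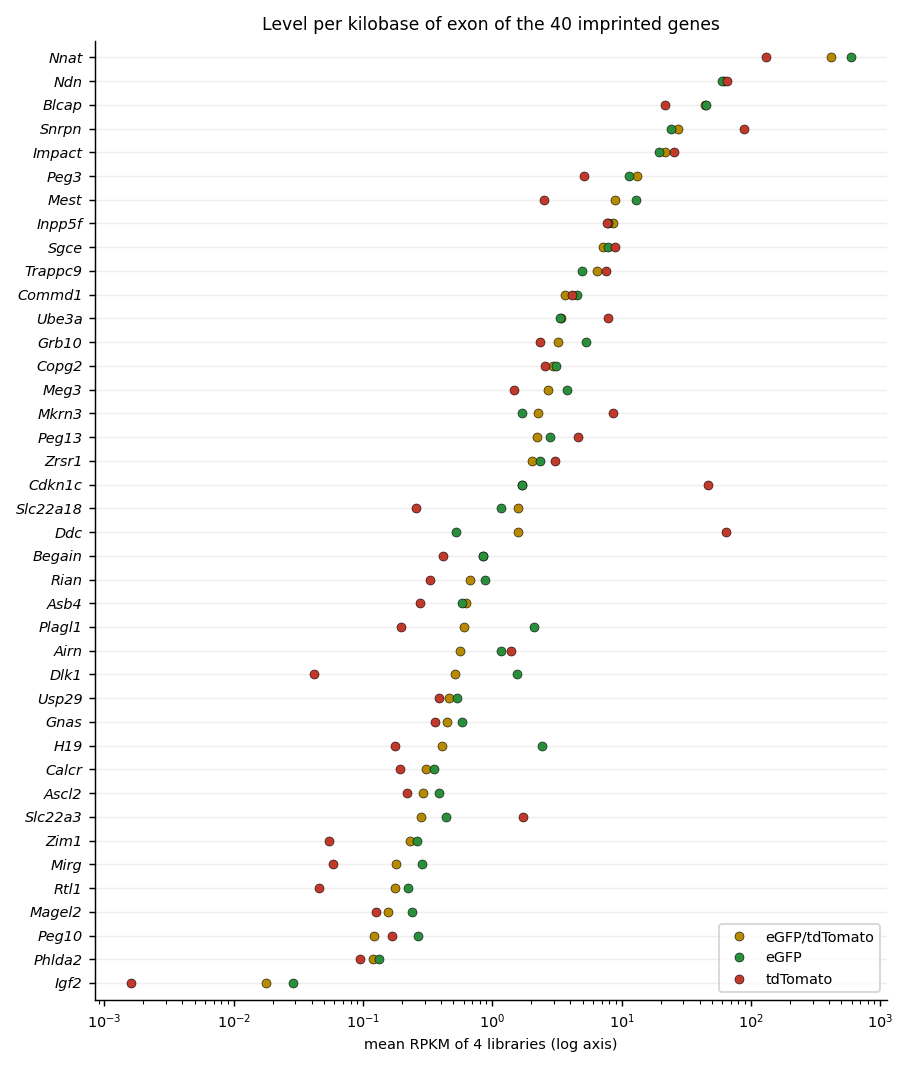
Mean RPKM of 4 libraries (log axis) of each of the 40 imprinted genes in the 3 fractions, in order of the eGFP/tdTomato level. Nnat is at the right in all 3 colours at 414, 594 and 131 RPKM, while Ddc and Cdkn1c have their tdTomato points at 63.7 and 46.5 RPKM, far to the right of the other 2.

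The summed level of the 40 genes was 1710, 1860, 2340 and 1970 CPM in the eGFP/tdTomato libraries, 1400, 2540, 2890 and 2500 CPM in the eGFP libraries and 2010, 2040, 2050 and 1450 CPM in the tdTomato libraries. The 3 fractions overlapped in this sum, with eGFP 1 lowest and the other 3 eGFP libraries highest. Its make-up differed: Nnat gave 34.1 to 42.4% of the sum with both reporters, 31.7 to 52.7% with eGFP alone and 11.2 to 14.3% with tdTomato alone. Ddc gave 0.241 to 0.445% with both reporters, 0.0286 to 0.298% with eGFP alone and 14.1 to 15.9% with tdTomato alone.

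The largest difference of any member was that of Ddc, in the Grb10 domain. Ddc (ENSMUSG00000020182, chr11:11814101-11898144, minus strand, GRCm38) encodes aromatic L-amino acid decarboxylase, which makes dopamine and serotonin from their precursors. It had 7.64, 7.94, 5.65 and 6.85 CPM in the eGFP/tdTomato libraries, 4.18, 0.739, 0.828 and 3.55 CPM in the eGFP libraries and 302, 305, 326 and 204 CPM in the tdTomato libraries. All 4 tdTomato libraries were far above the other 8, and the eGFP/tdTomato libraries were all above the eGFP libraries. Ddc was 40.5-fold lower in eGFP/tdTomato than in tdTomato (log2 fold change −5.34 ± 0.46, SE, adjusted p = 2.40e-07). In the eGFP fraction it was lower still against tdTomato, by 123-fold (−6.95 ± 0.50, adjusted p = 3.34e-08). With both reporters it was 3.05-fold above the eGFP level (1.61 ± 0.42), which missed the threshold at an adjusted p of 0.0627; it passed without eGFP 1 (1.96, adjusted p = 0.0147) and without eGFP 5 (1.94, adjusted p = 0.0417).

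Grb10 (chr11:11930508-12038683, minus strand), an adaptor that restrains insulin receptor signalling and growth, starts 140539 bases from Ddc. It had 27.4, 39.6, 26.8 and 23.7 CPM with both reporters, 31.5, 55.8, 56.3 and 48.9 CPM with eGFP alone and 22.2, 29.2, 21.1 and 12.1 CPM with tdTomato alone. The eGFP libraries were all above the tdTomato libraries, and the eGFP/tdTomato libraries overlapped with both. Grb10 was 2.28-fold higher in eGFP than in tdTomato (log2 fold change 1.19 ± 0.27, adjusted p = 0.00251), opposite in sign to Ddc. It was not called in the eGFP/tdTomato fraction against eGFP (−0.71 ± 0.26, adjusted p = 0.273) or tdTomato (0.47 ± 0.26, adjusted p = 0.199). Within a library, the log2 ratio of Ddc to Grb10 counts was −2.32 to −1.79 with both reporters, −6.19 to −2.91 with eGFP alone and 3.39 to 4.07 with tdTomato alone, so the 3 fractions did not overlap.

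Some neuronal genes were, like the myelin markers, highest in the tdTomato fraction, as Ddc was. In eGFP/tdTomato over eGFP, 7 of 10 myelin markers and 1 of 11 neuron markers were called higher, where 0.814% of all genes were. The 12 neuron markers summed to 46.4 to 73.1 CPM in the eGFP/tdTomato, 67.6 to 87.7 CPM in the eGFP and 454 to 682 CPM in the tdTomato fraction, and in the last of these Elavl3 alone gave 382 to 589 CPM. The synaptic gene Snap25 was at 14.2 to 18.7, 20 to 29.2 and 19.3 to 32.5 CPM in the same fractions, and the neuronal nuclear gene Rbfox3 at 3.35 to 6.15, 2.86 to 8.53 and 1.15 to 4.12 CPM. Of the 11 neuron markers tested, edgeR called 5 lower and 1 higher in eGFP/tdTomato than in tdTomato, and 3 lower and 2 higher in eGFP than in tdTomato. Tubb3, a neuronal tubulin, was at 1.17 to 4.48 CPM with both reporters, 1.80 to 4.25 CPM with eGFP alone and 9.09 to 13.8 CPM with tdTomato alone. Elavl4, a neuronal RNA-binding protein, was at 4.26 to 5.62, 1.39 to 7.97 and 19 to 33.3 CPM in the eGFP/tdTomato, eGFP and tdTomato fractions. Th, which makes the substrate of Ddc in dopamine cells and was looked up after the Ddc values were seen, averaged 0.436, 0.541 and 0.0905 CPM. The part of neuronal RNA or of RNA from myelinating cells in the Ddc result was not tested.

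The promoter windows of Ddc are shown because Ddc had the largest difference of any member. RefSeq windows (GRCm38.p6) run from 250 bases before to 50 after a start, and 32 of the 40 genes matched 53 of them. H19, Trappc9, Rtl1, Peg13, Peg10, Sgce, Cdkn1c and Impact had no entry. The first Ddc window, chr11:11898095-11898394 on the minus strand, held 2 CpG and the second, chr11:11890359-11890658, held 5, where the median of all 32851 windows was 7 and the quartiles were 3 and 20. Capitals mark motifs here and below, and the Ddc windows held none of the 3 searched.
Ddc, upstream start: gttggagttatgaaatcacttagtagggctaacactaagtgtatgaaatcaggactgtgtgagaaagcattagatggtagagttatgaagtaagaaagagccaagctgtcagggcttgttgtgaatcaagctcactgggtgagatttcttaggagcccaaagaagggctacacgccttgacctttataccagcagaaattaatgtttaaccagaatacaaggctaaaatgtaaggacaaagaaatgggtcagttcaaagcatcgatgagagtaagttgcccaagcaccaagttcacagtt
Ddc, downstream start: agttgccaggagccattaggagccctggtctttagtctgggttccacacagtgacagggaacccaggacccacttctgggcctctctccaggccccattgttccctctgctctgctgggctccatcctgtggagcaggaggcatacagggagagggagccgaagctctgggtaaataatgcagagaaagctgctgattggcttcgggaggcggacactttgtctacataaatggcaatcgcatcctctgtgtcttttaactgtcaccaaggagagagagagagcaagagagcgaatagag

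Cdkn1c and Slc22a18, neighbours in the Kcnq1 domain whose starts lie 12686 bases apart, also went opposite ways. Cdkn1c (ENSMUSG00000037664, chr7:143458339-143461050, minus strand) encodes p57Kip2, an inhibitor of cyclin-dependent kinases. It was at 4.57, 2.15, 2.11 and 4.93 CPM with both reporters, 4.07, 6.65, 0.677 and 2.38 CPM with eGFP alone and 142, 93.6, 46.2 and 97.6 CPM with tdTomato alone. The lowest tdTomato library was several times above the highest of the other 8, which overlapped. Cdkn1c was 27.5-fold lower in eGFP/tdTomato than in tdTomato (log2 fold change −4.78 ± 0.57, adjusted p = 7.23e-06) and 27.8-fold lower in the eGFP fraction (−4.80 ± 0.57, adjusted p = 6.73e-06), while the 2 astrocyte fractions differed by 0.02 ± 0.52. An antisense gene overlaps 30.7% of its exon bases, and the strand setting of the counting is not given in the sources used here.

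Slc22a18 (chr7:143473736-143499334, plus strand), an organic cation transporter-like gene, had 2.45, 3.27, 2.11 and 2.93 CPM with both reporters, 3.34, 2.12, 1.51 and 0.981 CPM with eGFP alone and 0.624, 0.120, 0.112 and 0.885 CPM with tdTomato alone. Every tdTomato library was below the other 8, at low levels. Slc22a18 was 6.18-fold higher in eGFP/tdTomato than in tdTomato (2.63 ± 0.67, adjusted p = 0.00712; 3.25 without tdTomato 5). It was 4.55-fold higher in eGFP than in tdTomato (2.19 ± 0.67, adjusted p = 0.0180), a call lost without eGFP 1 (1.63, adjusted p = 0.0798) and without tdTomato 2 (1.85, adjusted p = 0.0523), and was 2.79 without tdTomato 5. The log2 ratio of Cdkn1c to Slc22a18 counts was −0.60 to 0.89, −1.13 to 1.64 and 6.76 to 9.43 in the eGFP/tdTomato, eGFP and tdTomato libraries. Of the other genes of this domain, Ascl2, a transcription factor of the placenta, averaged at most 0.624 CPM in any fraction and was not called. Phlda2, a growth-restraining gene of the placenta, averaged at most 0.149 CPM and was not tested.

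**Figure D3:**
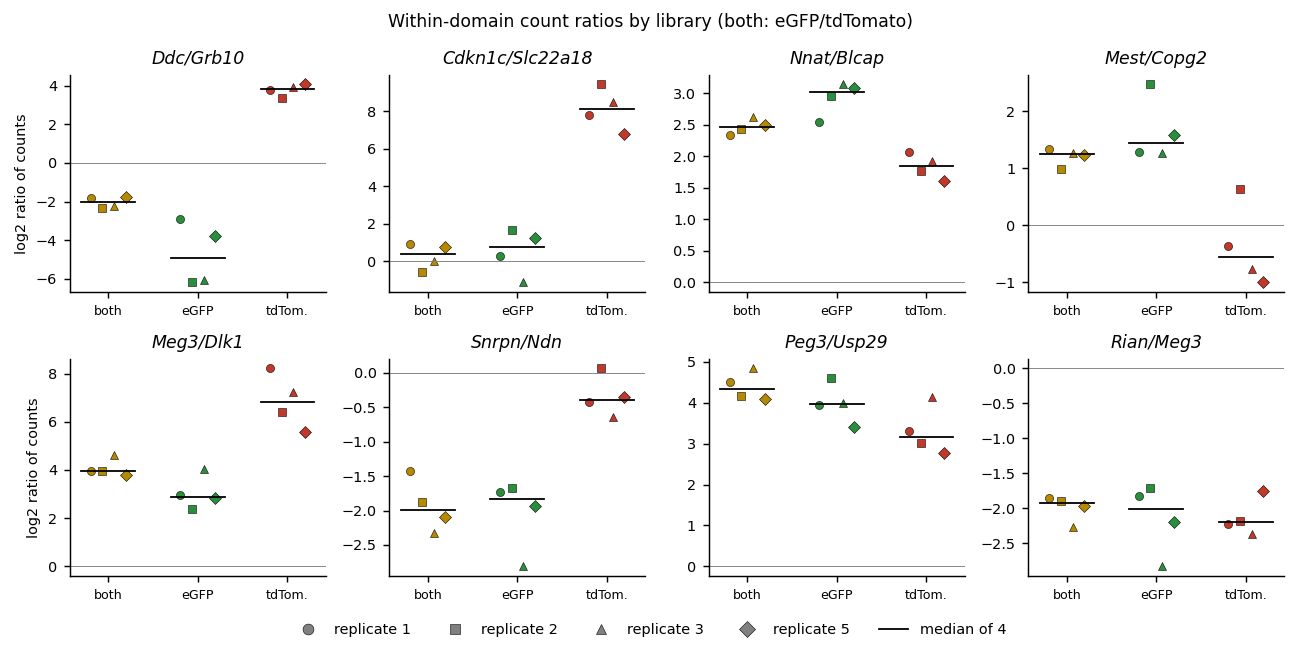
Log2 ratio of the counts of 2 neighbouring imprinted genes in each library (4 per fraction, line: median), with a grey line at equal counts. Ddc/Grb10 and Cdkn1c/Slc22a18 are separated by several log2 units between the tdTomato libraries and the rest, while Rian/Meg3 and Peg3/Usp29 overlap in all 3 fractions.

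In the Snrpn domain, which corresponds to the region of the Prader-Willi and Angelman syndromes in people, 3 of 5 genes were called, all lower in both astrocyte fractions. Over all genes, 12.4% were lower in eGFP/tdTomato and 14.9% in eGFP than in tdTomato. Of genes of at least 1 CPM, 43.5 and 50.9% were called in either direction. With 5 genes, the count is no result about the domain. Snrpn (ENSMUSG00000102252, chr7:59982495-60140219, minus strand), a spliceosome protein gene of brain, had 66.9, 54.9, 56.2 and 57.1 CPM with both reporters, 37.6, 70.6, 46.3 and 54.6 CPM with eGFP alone and 185, 234, 190 and 154 CPM with tdTomato alone. The tdTomato libraries were all above the other 8, among which the fractions overlapped. Snrpn was 3.25-fold lower in eGFP/tdTomato (log2 fold change −1.70 ± 0.20, adjusted p = 8.35e-06) and 3.65-fold lower in eGFP (−1.87 ± 0.20, adjusted p = 2.92e-06) than in tdTomato. Another gene on the same strand covers 27.3% of its exon bases, so part of its reads may have been set aside as ambiguous.

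Ube3a (chr7:59228750-59311536, plus strand) encodes a ubiquitin ligase that in mouse neurons is read from the maternal copy, with the paternal copy silenced by an antisense transcript. In the eGFP/tdTomato libraries it had 68.1, 68.2, 77.1 and 67.8 CPM, in the eGFP libraries 60.5, 78.1, 69.6 and 68.0 CPM and in the tdTomato libraries 203, 167, 154 and 120 CPM. The tdTomato libraries again stood apart from the other 8. Ube3a was 2.29-fold lower in eGFP/tdTomato (−1.20 ± 0.17, adjusted p = 5.87e-05) and 2.33-fold lower in eGFP (−1.22 ± 0.17, adjusted p = 4.36e-05) than in tdTomato. That antisense transcript, Snhg14, named after its values were seen, was lower in the same 2 comparisons (−0.81 ± 0.22, adjusted p = 0.00958, and −1.06 ± 0.22, adjusted p = 0.00125). Genes on the opposite strand, Snhg14 among them, cover 27.3% of the exon bases of Ube3a, so without the strand setting reads of the pair cannot be told apart there.

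Mkrn3 (chr7:62417593-62420139), a ubiquitin ligase gene known in people for delaying puberty, followed Snrpn at lower levels. It had 6.21, 4.82, 6.63 and 5.30 CPM with both reporters, 7.25, 0.693, 5.68 and 3.51 CPM with eGFP alone and 22.4, 17.5, 27.9 and 19.4 CPM with tdTomato alone. No astrocyte-fraction library reached the lowest tdTomato library. It was 3.80-fold lower in eGFP/tdTomato (−1.92 ± 0.45, adjusted p = 0.00368) and 5.10-fold lower in eGFP (−2.35 ± 0.46, adjusted p = 7.81e-04) than in tdTomato. Ndn, a MAGE-family gene that lies 2206350 bases from Snrpn by their starts, was level instead: it had 180, 202, 281 and 245 CPM with both reporters, 125, 225, 324 and 208 CPM with eGFP alone and 250, 225, 296 and 198 CPM with tdTomato alone. Its differences were 0.04 ± 0.25, −0.09 ± 0.25 and −0.13 ± 0.25 on the log2 scale in the order eGFP/tdTomato over eGFP, eGFP/tdTomato over tdTomato and eGFP over tdTomato, none of them called. Accordingly the log2 ratio of Snrpn to Ndn counts was −2.32 to −1.43 with both reporters, −2.81 to −1.67 with eGFP alone and −0.64 to 0.06 with tdTomato alone. Magel2, the MAGE-family neighbour of Ndn, averaged at most 1.10 CPM and was not called.

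The paternal gene Nnat and the maternal gene Blcap, which contains Nnat in an intron, were both higher in the astrocyte fractions. Nnat (ENSMUSG00000067786, chr2:157560078-157562522, plus strand) encodes neuronatin, a small membrane protein of the endoplasmic reticulum. It had 585, 676, 994 and 778 CPM with both reporters, 446, 1150, 1430 and 1320 CPM with eGFP alone and 243, 257, 293 and 162 CPM with tdTomato alone. Every library of the astrocyte fractions was above every tdTomato library, and eGFP 1 was the lowest of these 8. Nnat was 3.17-fold higher in eGFP/tdTomato (log2 fold change 1.67 ± 0.31, adjusted p = 6.62e-04) and 4.55-fold higher in eGFP (2.19 ± 0.32, adjusted p = 5.67e-05) than in tdTomato. Between eGFP/tdTomato and eGFP it was not called (−0.52 ± 0.31, adjusted p = 0.716), but without eGFP 1 it was lower with both reporters (−0.84, adjusted p = 0.0467). It was also called lower there with a covariate for reads outside genes (−0.65, adjusted p = 0.0355).

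Blcap (chr2:157556362-157571274, minus strand), a small membrane protein gene first described in bladder cancer, had 116, 124, 160 and 138 CPM with both reporters, 76.1, 149, 163 and 156 CPM with eGFP alone and 58.3, 76.0, 76.7 and 53.2 CPM with tdTomato alone. All 8 astrocyte-fraction libraries but eGFP 1 were above the tdTomato range. It was 2.04-fold higher in eGFP/tdTomato (1.03 ± 0.23, adjusted p = 0.00274) and 2.06-fold higher in eGFP (1.04 ± 0.23, adjusted p = 0.00217) than in tdTomato, and the first of these calls was lost without eGFP/tdTomato 3 (0.64, adjusted p = 0.0904). The log2 ratio of Nnat to Blcap was 2.33 to 2.63 with both reporters and 2.55 to 3.14 with eGFP alone, above the 1.61 to 2.06 with tdTomato alone. The Nnat window, chr2:157559828-157560127 on the plus strand, held 17 CpG and 1 match of TGCCGC, the motif of the imprint-keeping protein Zfp57, here on the reverse strand and in capitals.
Nnat: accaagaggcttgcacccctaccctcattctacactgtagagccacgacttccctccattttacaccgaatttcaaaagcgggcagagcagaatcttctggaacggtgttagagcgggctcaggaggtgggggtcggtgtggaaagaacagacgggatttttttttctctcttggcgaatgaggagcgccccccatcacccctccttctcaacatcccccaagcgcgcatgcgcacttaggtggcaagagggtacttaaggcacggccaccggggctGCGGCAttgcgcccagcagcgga

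Plagl1 and Dlk1 were the 2 genes called in all 3 comparisons. Plagl1 (ENSMUSG00000019817, chr10:13060504-13131694, plus strand), a zinc finger transcription factor known in the mouse for regulating other imprinted genes, had 3.38, 4.75, 3.88 and 6.70 CPM with both reporters, 10.5, 24.7, 14.6 and 15.6 CPM with eGFP alone and 1.47, 0.963, 1.78 and 1.96 CPM with tdTomato alone. The fractions did not overlap, with eGFP highest, eGFP/tdTomato between and tdTomato lowest. Plagl1 was 3.50-fold lower in eGFP/tdTomato than in eGFP (log2 fold change −1.81 ± 0.32, adjusted p = 0.00481), a call kept in all 20 alternative analyses. It was 3.03-fold higher in eGFP/tdTomato (1.60 ± 0.33, adjusted p = 0.00146) and 10.6-fold higher in eGFP (3.41 ± 0.35, adjusted p = 1.29e-06) than in tdTomato. Its window, chr10:13090582-13090881 on the plus strand, held 26 CpG and 1 Zfp57 motif.
Plagl1: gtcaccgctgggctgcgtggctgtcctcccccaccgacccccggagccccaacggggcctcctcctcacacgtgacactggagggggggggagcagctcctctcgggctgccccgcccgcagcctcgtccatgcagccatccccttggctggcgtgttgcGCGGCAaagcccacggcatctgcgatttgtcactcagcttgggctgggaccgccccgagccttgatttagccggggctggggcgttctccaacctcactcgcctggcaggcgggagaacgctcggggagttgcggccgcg

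Dlk1 (ENSMUSG00000040856, chr12:109452823-109463336, plus strand), a membrane protein of the Notch ligand family known from progenitors and fat cell precursors, had 2.49, 3.63, 2.03 and 3.44 CPM with both reporters, 9.81, 11.6, 4.74 and 8.64 CPM with eGFP alone and 0.0891, 0.331, 0.149 and 0.369 CPM with tdTomato alone. The order of fractions was that of Plagl1, without overlap. Against tdTomato it was 11.9-fold higher in eGFP/tdTomato (3.57 ± 0.46, adjusted p = 1.84e-05) and 35.6-fold higher in eGFP (5.15 ± 0.48, adjusted p = 5.38e-07). The lower level in eGFP/tdTomato than in eGFP (−1.58 ± 0.40) had an adjusted p of 0.0499. That call was lost in 9 of 20 alternatives: without eGFP 1 (adjusted p = 0.0699), eGFP 2 (0.193) or eGFP 5 (0.135), without tdTomato 2 (0.0587), without eGFP/tdTomato 1 (0.159), 2 (0.0844), 3 (0.172) or 5 (0.119), and with no low-count filter (0.0585).

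H19 (chr7:142575529-142578143, minus strand), a maternal non-coding RNA that carries a growth-restraining microRNA, had its highest levels in the eGFP fraction. Its levels were 0.307, 0.439, 1.77 and 1.48 CPM with both reporters, 2.95, 13, 2.75 and 5.24 CPM with eGFP alone and 0.624, 0.632, 0.409 and 0.0738 CPM with tdTomato alone. All eGFP libraries were above the other 8, which overlapped, and eGFP 2 was highest. H19 was 13.6-fold higher in eGFP than in tdTomato (3.77 ± 0.76, adjusted p = 0.00110), and by 3.04 without eGFP 2 (adjusted p = 0.00743). In eGFP/tdTomato it was 5.98-fold below eGFP (−2.58 ± 0.72), which missed the threshold at an adjusted p of 0.0844 and passed without eGFP 3 (−2.81, adjusted p = 0.0449). Without eGFP 2 it was −1.85 (adjusted p = 0.428). With all libraries it passed by DESeq2 (−2.65, adjusted p = 0.00306) and with a covariate for reads outside genes (−2.93, adjusted p = 0.0180). It also passed with a filter of at least 1 CPM in 4 libraries (−2.70, adjusted p = 0.0467). Igf2, the paternal growth factor gene of the same domain, had 0.0399 to 0.148, 0.0376 to 0.334 and 0 to 0.0369 CPM in the eGFP/tdTomato, eGFP and tdTomato libraries. Another gene shares 62.8% of the exon bases of Igf2 on the same strand, so its counts are uncertain.

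The marker sums of ependyma, of fibroblasts and mural cells and of microglia and macrophages were highest in the eGFP fraction, as were H19, Plagl1 and Dlk1. Library eGFP 2, highest for all 3 genes, also had the highest sums of fibroblast and mural markers (2120 CPM, against 794 to 1290 CPM in the other eGFP libraries) and of ependyma markers (627 CPM, against 286 to 580 CPM). Other lists peaked elsewhere: microglia and macrophage markers in eGFP 5 (1130 CPM, against 250 CPM in eGFP 2) and endothelium markers in eGFP 1 (49.7 CPM, against 27.7 CPM). Dlk1 was higher in eGFP 1 (9.81 CPM) than in eGFP 5 (8.64 CPM), where the ependyma sums were 286 and 580 CPM. All 10 ependyma and 5 of 10 fibroblast and mural markers were called lower in eGFP/tdTomato than in eGFP, and 8 of 12 microglia and macrophage markers were too. The collagen gene Col1a2 made up most of the fibroblast and mural sum with both reporters, at 314 to 520 CPM, while Dcn was at 2.71 to 5.98 CPM there and at 67.3 to 673 CPM with eGFP alone. The part of these cell types in the levels of the 3 imprinted genes was not tested.

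**Figure D4:**
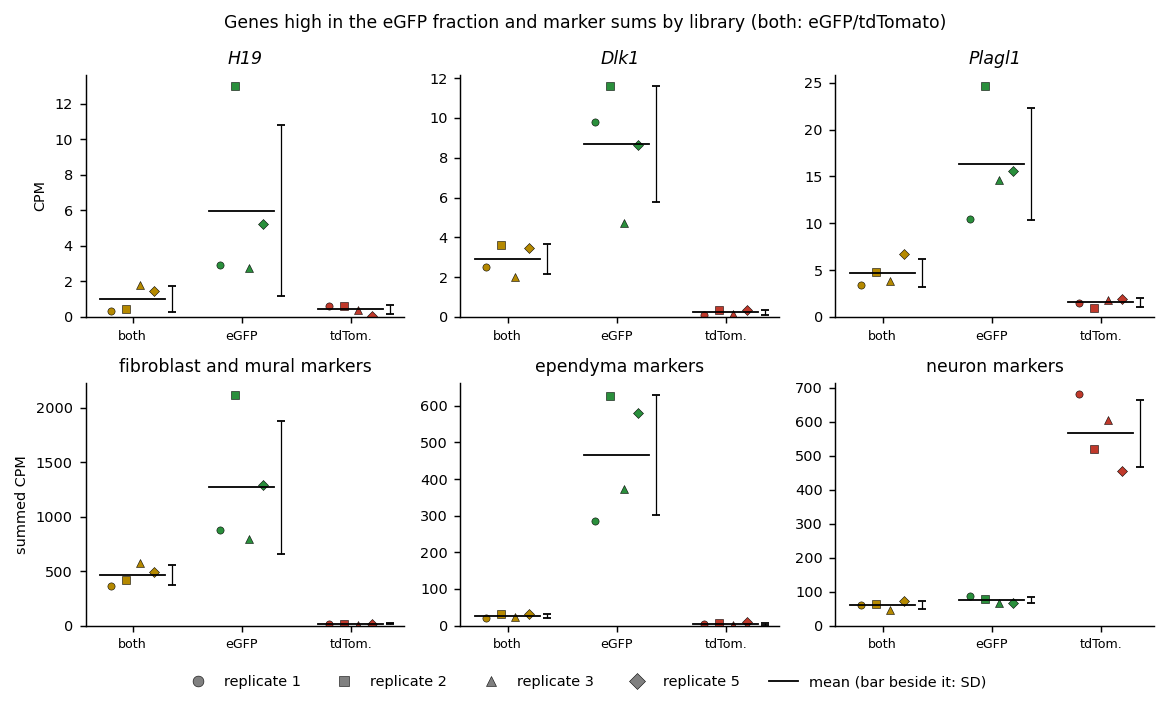
CPM per library of H19, Dlk1 and Plagl1 (top) and summed CPM of 3 marker lists (bottom), with the mean and SD of 4 libraries per fraction. The 3 imprinted genes and the fibroblast and mural and ependyma sums are highest in the eGFP fraction, each with eGFP 2 on top, and the neuron sum is highest in the tdTomato fraction at 454 to 682 CPM.

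Maternal non-coding RNAs of the Dlk1-Dio3 domain host many microRNAs and small nucleolar RNAs, and of these Meg3 and Rian were higher in both astrocyte fractions. Meg3 (chr12:109541001-109571726, plus strand) had 39.1, 56.0, 51.1 and 47.6 CPM with both reporters, 76.0, 59.5, 77.6 and 61.6 CPM with eGFP alone and 32.9, 29.3, 25.2 and 18.7 CPM with tdTomato alone. The 3 fractions did not overlap, in the order eGFP, eGFP/tdTomato and tdTomato. Meg3 was 1.83-fold higher in eGFP/tdTomato (0.87 ± 0.20, adjusted p = 0.00293) and 2.59-fold higher in eGFP (1.37 ± 0.20, adjusted p = 5.18e-05) than in tdTomato. The first of these calls was lost without eGFP/tdTomato 3 (0.54, adjusted p = 0.0920), and the step between eGFP/tdTomato and eGFP was not called by edgeR (−0.50 ± 0.19, adjusted p = 0.311). DESeq2 called that step (−0.56, adjusted p = 0.0431).

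Rian, downstream on the same strand, had 10.8, 15.1, 10.6 and 12.1 CPM with both reporters, 21.5, 18.1, 10.9 and 13.5 CPM with eGFP alone and 7.04, 6.47, 4.91 and 5.53 CPM with tdTomato alone. All tdTomato libraries were lowest. Rian was 2.03-fold higher in eGFP/tdTomato (1.02 ± 0.24, adjusted p = 0.00422) and 2.67-fold higher in eGFP (1.41 ± 0.24, adjusted p = 2.76e-04). The log2 ratio of Rian to Meg3 counts was −2.27 to −1.85 with both reporters, −2.83 to −1.71 with eGFP alone and −2.36 to −1.75 with tdTomato alone, and so overlapped throughout. The log2 ratio of Meg3 to Dlk1 counts did not: it was 3.78 to 4.64 and 2.36 to 4.03 in the eGFP/tdTomato and eGFP libraries and 5.59 to 8.21 in the tdTomato libraries.

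Mirg, the last of these RNAs, had 1.30, 2.03, 0.640 and 1.30 CPM with both reporters, 3.85, 2.35, 0.565 and 1.62 CPM with eGFP alone and 0.668, 0.301, 0.0744 and 0.664 CPM with tdTomato alone. In neither astrocyte fraction were its libraries apart from those with tdTomato alone. In eGFP/tdTomato over tdTomato it was not called (1.62 ± 0.74, adjusted p = 0.117). It was called higher in eGFP than in tdTomato (2.29 ± 0.75, adjusted p = 0.0266), a call lost without any one of eGFP 1, eGFP 2, eGFP 5, tdTomato 2 and tdTomato 3 (adjusted p = 0.122, 0.0526, 0.0651, 0.0756 and 0.0626). The log2 fold change without eGFP 1 was 1.63. Begain, a postsynaptic protein gene at the edge of the domain, had 3.95, 3.71, 3.50 and 3.85 CPM with both reporters, 5.24, 3.37, 3.42 and 2.90 CPM with eGFP alone and 1.83, 2.29, 1.75 and 1.44 CPM with tdTomato alone. The tdTomato libraries were lowest. Begain was 2.05-fold higher in eGFP/tdTomato (1.04 ± 0.32, adjusted p = 0.0225) and 2.04-fold higher in eGFP (1.03 ± 0.32, adjusted p = 0.0207), and these calls were lost in 10 and 9 of 20 alternatives. The first was lost without any one of eGFP 1, eGFP 5, tdTomato 1, 3 or 5 and eGFP/tdTomato 1, 2, 3 or 5 (adjusted p = 0.0501 to 0.144), and the second without any one of eGFP 1, eGFP 5, tdTomato 1, 3 or 5 and eGFP/tdTomato 3 (0.0541 to 0.145). Rtl1, a retrotransposon-derived gene antisense to part of the domain, averaged 1.13, 1.42 and 0.291 CPM in the eGFP/tdTomato, eGFP and tdTomato fractions and was not called. In eGFP over tdTomato it stood at 2.28 ± 0.88 (adjusted p = 0.0578), and passed without eGFP 2 (2.61, adjusted p = 0.0314) and without eGFP/tdTomato 1 (2.27, adjusted p = 0.0492). With all libraries it passed there by DESeq2 (2.21, adjusted p = 0.0237).

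**Figure D5:**
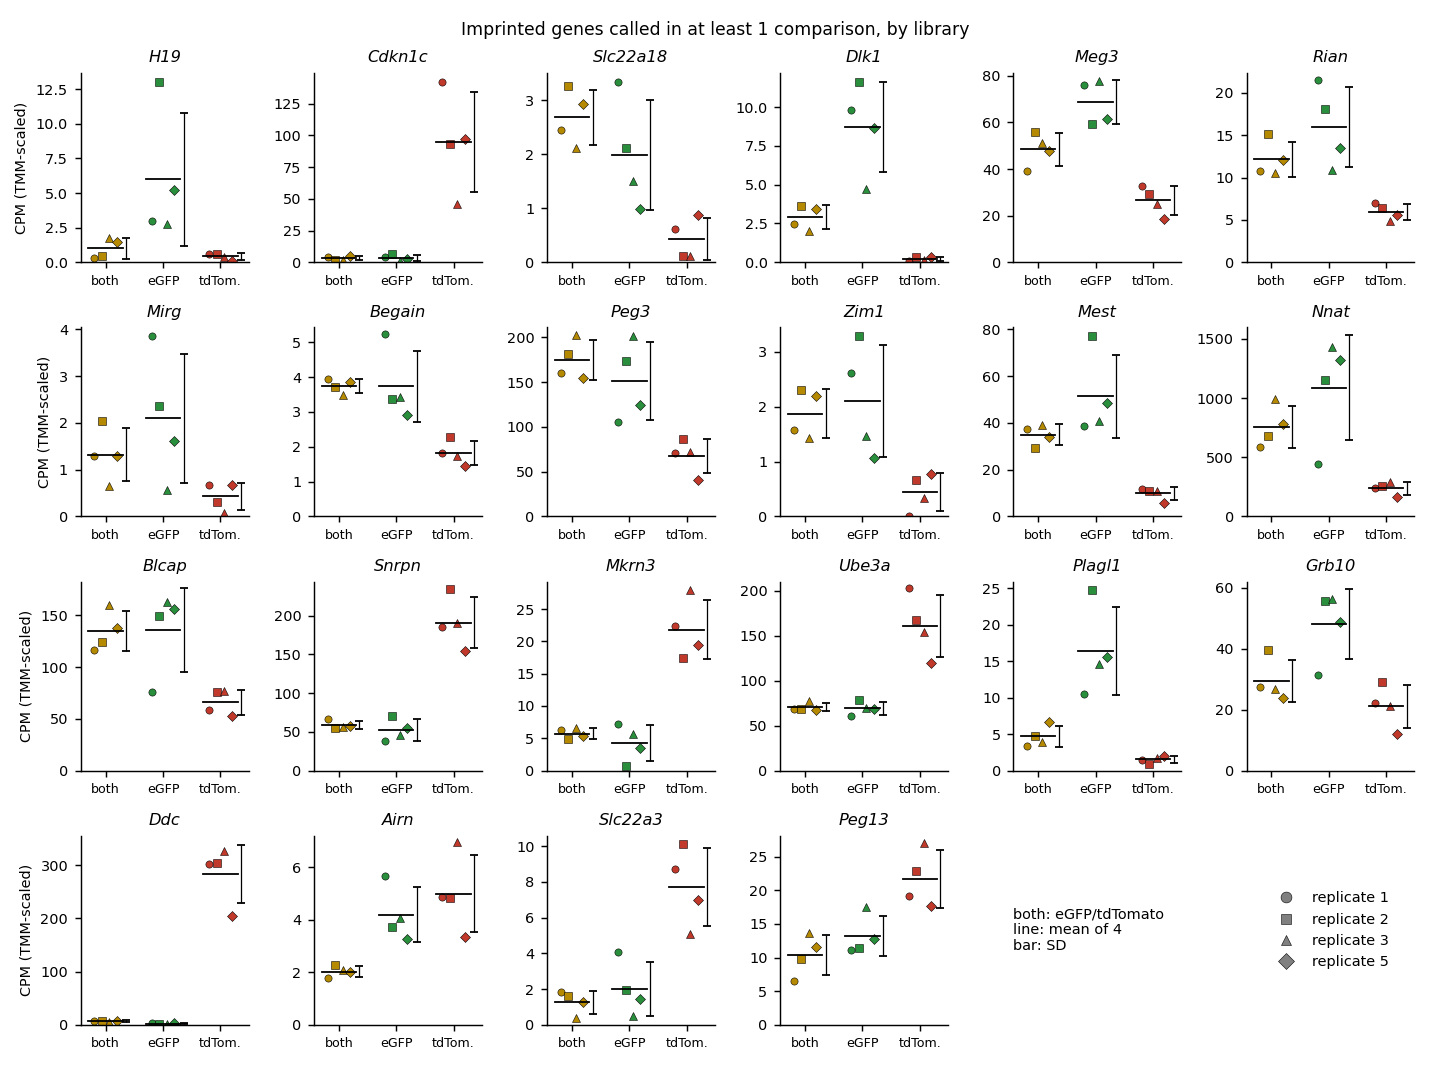
CPM per library of the 22 imprinted genes called in at least 1 comparison, with the mean (line) and SD (bar) of 4 libraries in the eGFP/tdTomato, eGFP and tdTomato fractions. Ddc, Cdkn1c, Snrpn, Mkrn3 and Ube3a are highest in every tdTomato library, Plagl1, Dlk1 and Meg3 step down from eGFP through eGFP/tdTomato to tdTomato, and H19 is high in the eGFP libraries, led by eGFP 2 at 13 CPM.

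In the Peg3 domain, genes that share a promoter region did not have the same calls. Peg3 (ENSMUSG00000002265, chr7:6703892-6730431, minus strand), a large zinc finger protein known in the mouse for effects on growth and maternal behaviour, had 160, 181, 203 and 155 CPM with both reporters, 106, 174, 201 and 124 CPM with eGFP alone and 70.9, 86.8, 71.8 and 40.8 CPM with tdTomato alone. The tdTomato libraries were all below the other 8. Peg3 was 2.58-fold higher in eGFP/tdTomato (1.37 ± 0.25, adjusted p = 4.29e-04) and 2.24-fold higher in eGFP (1.16 ± 0.24, adjusted p = 0.00145) than in tdTomato. Usp29, a ubiquitin protease gene that starts 147 bases away on the other strand, had 6.96, 10, 7.08 and 9.11 CPM with both reporters, 6.86, 7.16, 12.6 and 11.8 CPM with eGFP alone and 7.17, 10.7, 4.05 and 5.98 CPM with tdTomato alone. Its libraries overlapped, and it was not called against tdTomato (0.24 ± 0.31 for eGFP/tdTomato, adjusted p = 0.550, and 0.46 ± 0.31 for eGFP, adjusted p = 0.248). The log2 ratio of Peg3 to Usp29 counts was 4.09 to 4.84, 3.40 to 4.60 and 2.77 to 4.14 in the eGFP/tdTomato, eGFP and tdTomato libraries, and these ranges overlapped.

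The Peg3 window, chr7:6730370-6730669 on the minus strand, and the Usp29 window, chr7:6730333-6730632 on the plus strand, share 263 bases and are printed to show this. They held 13 and 17 CpG, and each has the palindrome GGGGCCCC, a motif bound by Plagl1, in capitals.
Peg3: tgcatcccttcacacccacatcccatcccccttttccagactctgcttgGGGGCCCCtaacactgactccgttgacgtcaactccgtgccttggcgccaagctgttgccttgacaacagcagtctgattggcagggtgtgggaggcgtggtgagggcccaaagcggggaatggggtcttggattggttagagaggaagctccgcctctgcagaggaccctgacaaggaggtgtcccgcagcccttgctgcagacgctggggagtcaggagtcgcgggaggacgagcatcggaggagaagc
Usp29: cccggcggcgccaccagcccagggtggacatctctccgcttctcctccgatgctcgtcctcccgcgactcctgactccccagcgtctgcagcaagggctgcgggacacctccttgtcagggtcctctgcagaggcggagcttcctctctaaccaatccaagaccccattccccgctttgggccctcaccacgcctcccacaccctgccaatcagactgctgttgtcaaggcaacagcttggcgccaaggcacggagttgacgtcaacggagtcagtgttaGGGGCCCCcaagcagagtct

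The 3 motifs were searched on both strands of all windows. TGCCGC was in 12 of the 53 windows of imprinted genes (22.6%), against 11.6% of all 32851 windows, and those 12 belonged to Calcr, Commd1, Copg2, Grb10, Igf2, Meg3, Mest, Nnat, Plagl1, Snrpn and Zim1. GGGGCCCC was in 3 windows (5.66%, against 1.08%), of Begain, Peg3 and Usp29, and the windows of the last pair share the same copy of it. GCCATNTT, the motif of YY1, was in 2 windows (3.77%, against 6.05%), of Mkrn3 and Ube3a. Windows of neighbouring starts overlap, and a match is a description of letters and not of binding.

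Zim1, a maternal zinc finger gene beside Peg3, had 1.57, 2.31, 1.43 and 2.19 CPM with both reporters, 2.62, 3.28, 1.47 and 1.06 CPM with eGFP alone and 0, 0.662, 0.335 and 0.775 CPM with tdTomato alone. The tdTomato libraries were lowest. Zim1 was 4.66-fold higher in eGFP than in tdTomato (2.22 ± 0.77, adjusted p = 0.0366), a call lost in 12 of 20 alternatives. Among these were the fits without any one library other than eGFP 3, tdTomato 1 and tdTomato 5, with adjusted p-values from 0.0501 to 0.0947. In eGFP/tdTomato against tdTomato it was not called (2.05 ± 0.77, adjusted p = 0.0584), though it passed without tdTomato 5 (2.44, adjusted p = 0.0424). With all libraries it passed there by DESeq2 (1.91, adjusted p = 0.0179) and by limma-voom (2.70, adjusted p = 0.0301).

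Mest (ENSMUSG00000051855, chr6:30723547-30748465, plus strand), an alpha/beta hydrolase gene linked to growth of mesoderm and fat, had 37.5, 29.3, 39.2 and 34.0 CPM with both reporters, 38.7, 77.2, 40.9 and 48.4 CPM with eGFP alone and 11.8, 10.9, 11 and 5.83 CPM with tdTomato alone. Every tdTomato library was below the other 8, and eGFP 2 was highest. Mest was 3.55-fold higher in eGFP/tdTomato (1.83 ± 0.26, adjusted p = 4.95e-05) and 5.20-fold higher in eGFP (2.38 ± 0.26, adjusted p = 3.44e-06) than in tdTomato. Copg2, a coat protein gene that overlaps the end of Mest on the other strand over 23.1% of the exon bases of Mest, averaged 15.1 ± 0.850, 15.8 ± 1.33 and 13.1 ± 4.96 CPM (SD, n = 4 each) in the eGFP/tdTomato, eGFP and tdTomato fractions and was not called. The log2 ratio of Mest to Copg2 counts was 0.98 to 1.34 with both reporters, 1.26 to 2.47 with eGFP alone and −1.0 to 0.64 with tdTomato alone.

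In the Igf2r and Peg13 domains, Slc22a3 and Peg13 were lower in both astrocyte fractions than in tdTomato, Airn was lower in eGFP/tdTomato, and Trappc9 was not called. Slc22a3 (chr17:12418960-12507704, minus strand), an organic cation transporter that takes up monoamines, had 1.81, 1.59, 0.377 and 1.26 CPM with both reporters, 4.07, 1.94, 0.489 and 1.47 CPM with eGFP alone and 8.73, 10.1, 5.06 and 6.97 CPM with tdTomato alone. The tdTomato libraries were all highest. Slc22a3 was 6.10-fold lower in eGFP/tdTomato (−2.61 ± 0.57, adjusted p = 0.00241) and 3.90-fold lower in eGFP (−1.96 ± 0.56, adjusted p = 0.0125, and −2.76 without eGFP 1) than in tdTomato. Airn, the paternal non-coding RNA that silences Slc22a3 and Igf2r on its own copy in the mouse placenta and embryo, had 1.77, 2.27, 2.07 and 2.00 CPM with both reporters, 5.68, 3.74, 4.06 and 3.28 CPM with eGFP alone and 4.86, 4.84, 6.95 and 3.36 CPM with tdTomato alone. The eGFP/tdTomato libraries were below all others, and eGFP and tdTomato overlapped. Airn was 2.46-fold lower in eGFP/tdTomato than in tdTomato (−1.30 ± 0.32, adjusted p = 0.00515) and not called against eGFP (−1.04 ± 0.32, adjusted p = 0.128) or between eGFP and tdTomato (−0.26 ± 0.31, adjusted p = 0.514). Against eGFP it was called lower by DESeq2 (−1.10, adjusted p = 0.00760) and with a filter of at least 1 CPM in 4 libraries (−1.13, adjusted p = 0.0420). Igf2r, its protein-coding partner, named after its values were seen, was lower in both astrocyte fractions than in tdTomato (−1.08 ± 0.18, adjusted p = 2.73e-04, and −0.78 ± 0.18, adjusted p = 0.00332).

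Peg13 (chr15:72805600-72810324, minus strand), a paternal non-coding RNA in an intron of Trappc9, had 6.58, 9.73, 13.7 and 11.6 CPM with both reporters, 11.1, 11.4, 17.5 and 12.7 CPM with eGFP alone and 19.1, 22.9, 27.1 and 17.6 CPM with tdTomato alone. All tdTomato libraries were above the other 8, by little in the case of eGFP 3. Peg13 was 2.08-fold lower in eGFP/tdTomato (−1.06 ± 0.25, adjusted p = 0.00369) and 1.64-fold lower in eGFP (−0.72 ± 0.25, adjusted p = 0.0334). The second of these calls was lost without eGFP 2, tdTomato 2 or tdTomato 3 (adjusted p = 0.0837, 0.0754 and 0.117). Trappc9, its host and a vesicle transport gene, averaged 50.9 ± 16.6, 39.5 ± 22.2 and 59.8 ± 16.5 CPM (SD, n = 4 each) in the eGFP/tdTomato, eGFP and tdTomato fractions. Its libraries overlapped and it was not called, though against tdTomato the eGFP level was called lower without eGFP 3 (−1.08, adjusted p = 0.00620) and without eGFP/tdTomato 3 (−0.83, adjusted p = 0.0479). Both lie on the minus strand.

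Calls were absent for 16 of the 38 tested genes, which include the whole Peg10 domain and the single genes Impact, Inpp5f and Gnas. The share of all genes without a call in any comparison was not computed, so this count is no result about imprinted genes or that domain. Sgce, a sarcoglycan whose start is 99 bases from that of Peg10, averaged 75.7 ± 4.26, 83.2 ± 14.2 and 94.7 ± 12.4 CPM (SD, n = 4 each) in the eGFP/tdTomato, eGFP and tdTomato fractions (−0.32 ± 0.17 in eGFP/tdTomato over tdTomato, adjusted p = 0.163). That difference passed in 7 of 20 alternatives, among them without eGFP 1 (−0.55, adjusted p = 0.00895), without eGFP/tdTomato 3 (−0.65, adjusted p = 0.0386) and without eGFP 5 (−0.56, adjusted p = 0.0475). Peg10, a retrotransposon-derived gene needed by the placenta, averaged 0.814, 1.77 and 1.12 CPM in these fractions, and Asb4 and Calcr averaged at most 2.44 CPM.

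Impact, a regulator of translation, averaged 111 ± 8.86, 99.5 ± 17.8 and 131 ± 32.3 CPM in the eGFP/tdTomato, eGFP and tdTomato fractions, and Inpp5f, an inositol phosphatase, 70.6 ± 8.10, 65.1 ± 4.37 and 63.5 ± 16.4 CPM (SD, n = 4 each). For Inpp5f the largest of the 3 log2 differences was 0.15 ± 0.19. Impact was −0.40 ± 0.20 in eGFP over tdTomato (adjusted p = 0.124), and was called lower without tdTomato 5 (−0.56, adjusted p = 0.0321) and without eGFP/tdTomato 3 (−0.65, adjusted p = 0.0405). With all libraries it was called lower there by DESeq2 (−0.46, adjusted p = 0.0433) and with a filter of at least 1 CPM in 4 libraries (−0.48, adjusted p = 0.0299). Zrsr1, a splicing factor retrogene, and Commd1, whose intron holds it, averaged 9.17, 10.5 and 13.7 CPM and 21.7, 26.9 and 24.7 CPM in the order of fractions above, with overlapping libraries and no call. Gnas, which encodes the stimulatory G protein subunit, was counted at only 2.92 to 8.31 CPM over all libraries. Genes on the opposite strand share 22.0% of its exon bases, where counts are uncertain without the strand setting. On its own strand 0.0% is shared, and the cause of the low level was not tested.

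A list of 52 further genes reported as imprinted in some mouse tissue, of which 49 were tested, was set beside the members. In the eGFP/tdTomato over the eGFP fraction 2 were higher and 1 lower, in the eGFP/tdTomato over the tdTomato fraction 15 and 10, and in the eGFP over the tdTomato fraction 16 and 12. Those shares, 6.12, 51.0 and 57.1%, were close to the 5.26, 47.4 and 55.3% of the members. The shares called were 2.49, 29.2 and 35.2% over all genes, and 3.92, 43.5 and 50.9% over genes of at least 1 CPM. As for the members, these shares are no result about imprinted genes. The largest called differences were those of Cobl, an actin nucleator gene beside Grb10 (−1.47 ± 0.24, adjusted p = 0.00248), Gatm, the first enzyme of creatine synthesis (1.33 ± 0.23, adjusted p = 0.00399), and Rasgrf1, a Ras activator (1.17 ± 0.26, adjusted p = 0.0216), in eGFP/tdTomato over eGFP. Against tdTomato, the paraoxonase genes Pon3 (3.85 ± 0.27, adjusted p = 2.79e-08) and Pon2 (3.80 ± 0.25, adjusted p = 1.59e-08) were higher and the glutaminyl cyclase gene Qpct (−3.60 ± 0.35, adjusted p = 1.02e-06) lower in eGFP/tdTomato. In eGFP, Pon3 (4.06 ± 0.28, adjusted p = 1.62e-08) and the flippase gene Atp10a (3.54 ± 0.54, adjusted p = 8.57e-05) were higher and Qpct lower (−3.53 ± 0.35, adjusted p = 1.12e-06).

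Among 16 genes that set or keep imprints, none was called between eGFP/tdTomato and eGFP by edgeR, with 1 at an unadjusted p under 0.05; limma-voom called none and DESeq2 called 1. Against tdTomato, 2 were higher and 2 lower in eGFP/tdTomato, and 1 was higher and 5 lower in eGFP. These shares, 25 and 37.5%, were close to the 29.2 and 35.2% of all genes and below the 43.5 and 50.9% of genes of at least 1 CPM. Those gaps were not tested. Zfp57, a zinc finger protein that keeps methylation at imprinted regions, averaged 3.22 ± 1.25, 4.19 ± 2.75 and 22.6 ± 3.74 CPM (SD, n = 4 each) in the eGFP/tdTomato, eGFP and tdTomato fractions. It was 6.99-fold lower in eGFP/tdTomato (−2.81 ± 0.53, adjusted p = 7.23e-04) and 5.39-fold lower in eGFP (−2.43 ± 0.53, adjusted p = 0.00182). Its co-repressor Trim28 was 2.02-fold lower in eGFP/tdTomato (−1.01 ± 0.22, adjusted p = 0.00183) and 2.35-fold lower in eGFP (−1.23 ± 0.22, adjusted p = 3.29e-04). The methyltransferase gene Dnmt3b was higher in both, by 1.26 ± 0.27 (adjusted p = 0.00186) and 1.12 ± 0.27 (adjusted p = 0.00387) on the log2 scale, at a mean of 7.25, 6.59 and 3.03 CPM.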

How the data were processed

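Per the submitters' processing notes, the authors aligned reads with STAR to GRCm38 (mm10) and counted them with HTSeq; versions, annotation release and strand setting are not given in the sources used here. They deposited raw counts, 1 file per library, for 53465 Ensembl genes. The 5 summary lines of each file stayed out of library sizes (28.5 to 64.0% of listed reads fell in genes, 21.2 to 57.1% outside). GENCODE M21 named 53360 identifiers (99.8%) and gave positions and exon lengths.

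Counts were tested with edgeR 4.0.16 in R 4.3.3 (filterByExpr by group, TMM, robust quasi-likelihood F-test) with all 12 libraries in 1 fit, fraction as the only factor and no block. Benjamini-Hochberg adjustment ran over all 29361 genes tested, and a call is an adjusted p under 0.05. The SE is the log2 fold change over the root of F. Ratios add 0.5 to each count. Alternatives used RLE factors, limma-voom (limma 3.58.1), DESeq2 1.42.0, other filters, only the fractions compared, a replicate block, a covariate for reads outside genes, and each library left out.

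Members, lists and domains were chosen with earlier results of these data known. Named were all 40 members, with values per library for called ones whose higher fraction averaged 1 CPM or more. Of the other imprinted genes and imprint regulators, the 3 called genes per comparison with the largest change and at least 5 CPM were named. Sequences are RefSeq promoter windows (GRCm38.p6). Precision is given by the SD or SE between libraries.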

Additional observations from a re-analysis of the deposited data

Results flagged for a closer look

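In each fraction, the highest or lowest of the 4 libraries was examined for each of the 38 tested genes, 114 groups in all. In 6 (5.26%) that library lay far from the other 3, where chance gives about 1 in 20. Library eGFP 1, the shallowest and the one with the most reads outside genes, held 3 of them. There Ascl2 had 1.84 CPM, against 0.0924 to 0.377 CPM in the other eGFP libraries, Magel2 had 2.34 CPM, against 0.600 to 0.792 CPM, and Blcap had 76.1 CPM, against 149 to 163 CPM. Ascl2 had 0.0903 CPM in tdTomato 2, against 0.443 to 0.446 CPM in the other tdTomato libraries. Mest had 5.83 CPM in tdTomato 5, against 10.9 to 11.8 CPM. Ube3a had 77.1 CPM in eGFP/tdTomato 3, against 67.8 to 68.2 CPM in the other eGFP/tdTomato libraries, a small gap next to the tdTomato level of 120 to 203 CPM.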

How the results depend on the processing

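The 114 log2 fold changes of the members were recomputed under 20 alternatives, which gave 2271 values. Of these, 2176 kept the side of the threshold, 58 lost a call and 37 gained one; no called value changed sign, and 101 uncalled values did. Between eGFP/tdTomato and eGFP the counts of calls depended most on the processing. All genes called higher there numbered 239, against 566 with the replicate block, 479 with the covariate for reads outside genes, 549 with DESeq2 and 103 to 475 with single libraries left out. All genes called lower numbered 491, against 949 with DESeq2 and 323 to 656 with single libraries left out. Members called higher numbered 0, against 1 with limma-voom, 1 with the replicate block, 1 with the covariate, 1 with DESeq2 and 0 to 1 with single libraries left out. Members called lower numbered 2, against 1 with no low-count filter, 4 with a filter of at least 1 CPM in 4 libraries, 4 with the covariate, 5 with DESeq2 and 1 to 3 with single libraries left out. Between eGFP/tdTomato and tdTomato, all genes called lower numbered 3628, against 2888 to 5452 with single libraries left out. The cause was not tested. Between eGFP and tdTomato the covariate took the calls of Mirg (1.23, against 2.29 without it; adjusted p = 0.196, edgeR), Begain (0.79, against 1.03; 0.114), Zim1 (1.95, against 2.22; 0.0792), Slc22a18 (1.58, against 2.19; 0.0744) and Peg13 (−0.41, against −0.72; 0.299). RLE factors put the median of all genes in eGFP/tdTomato over tdTomato at 0.57, against 0.70 with TMM, and that of the members at 0.18, against 0.30, with no called member changing sign.

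The replicate numbers were not taken to pair the libraries. The correlation of deviations between same-numbered libraries of different fractions ran from −0.217 to 0.643, with 8 of 12 pairs and not all above 0.1. Between differently numbered libraries it ran from −0.661 to 0.564, lower at both ends. By mean correlation, 6 of 12 libraries matched best with their own number, which is more than a random match of numbers would give on average. The labels use the same replicate numbers in every fraction but do not say what a number shares. A pairing by number is therefore possible, and the main fit leaves it out. The replicate block added calls for Ddc between eGFP/tdTomato and eGFP (1.70, adjusted p = 0.0231), for Mirg (1.84, adjusted p = 0.0323) and Zim1 (2.19, adjusted p = 0.0365) between eGFP/tdTomato and tdTomato, and for Trappc9 between eGFP and tdTomato (−0.70, adjusted p = 0.0113), and took none from a member. Genes under about 1 CPM, such as Igf2, Phlda2, Ascl2 and Magel2, rest on few reads, and no difference in them was detected at this depth.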
